A study of Mus musculus with 3 samples.

Results

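The genes described here are 32 mouse genes of G2 phase and mitosis, taken from a fixed list and matched by name to the noncontrol probes of a 2-colour Agilent array. All 32 were on the array, with 47 of its 39429 noncontrol probes, and 46 of the 47 had signal well above background. The cells are RM1, a line from a murine prostate tumour. RM1-MXRA7 cells carry a transfected MXRA7 and RM1-VE cells the vehicle vector, and both lines were grown in the same medium with 10% fetal calf serum and G418 at 400 µg/mL. RNA was taken in exponential growth on day 2. Each of 3 arrays held RM1-MXRA7 RNA in Cy3 and RM1-VE RNA in Cy5, so each gave 1 log2 ratio of RM1-MXRA7 over RM1-VE per gene (n = 3). The labels do not say whether the 3 repeats were separate cultures or transfections, or whether a line was 1 clone, and the p-values measure only the spread between these arrays.

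Mitosis is driven by cyclin-dependent kinase 1 bound to cyclins A and B, with the Polo-like and Aurora kinases acting beside it. Kinesins and other microtubule-binding proteins build the spindle, and kinetochores tie chromosomes to it. A checkpoint then holds back the anaphase-promoting complex, the ubiquitin ligase that starts chromosome separation, until every kinetochore is attached. The genes of this machinery are switched on together late in the cell cycle and are repressed in cells that have left it, so their summed level in a bulk sample moves with the share of cells in G2 and M and with the level per cell, which cannot be told apart here.

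More of these genes were lower in RM1-MXRA7 than were higher, by small amounts. Of 32 genes, 11 fell and 1 rose, where a gene is said to have fallen or risen only if limma called it in that direction (adjusted p of 0.05 over 16758 genes) both in ratios normalized by loess and after removal of a trend over the array surface. The 11 are the cyclin genes Ccna2 and Ccnb1, the kinase gene Cdk1, the kinesin gene Kif23, the spindle genes Tpx2 and Hmmr, the kinetochore and passenger genes Cenpe and Birc5, the checkpoint gene Mad2l1, its target Cdc20, and Ect2 of cytokinesis. The gene that rose is Mki67. Among all genes tested, 10.8% fell and 9.52% rose by the same rule, so the 34.4% of the 32 genes that fell stands above that share and the 3.13% that rose below it. The fold by which the 11 were lower lay between 1.20 and 1.40 in the loess values and between 1.14 and 1.27 with the surface removed. The median log2 ratio of the 32 genes was -0.17, against -0.015 for all genes, and -0.19 with the surface removed, against 0.0039 for all genes. After surface removal the mean was below 0 for 25 of the 32 genes and for 8239 of all 16758. Of the 32, 22 were then negative on all 3 arrays and 2 positive on all 3, and the share of all genes was not counted for this.

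The counts of calls depended on array 2. Without it 1 gene fell, Cenpe, and 0 rose, while the share of all genes that fell dropped as well, to 4.42%. That 1 of the 32 genes lies below this share, so without array 2 the excess of called falls over all genes was not seen. The means themselves stayed mostly negative. With the surface removed and array 2 left out, 29 of the 32 lay below 0, where the median of all genes was 0.0017. The share of all genes below 0 was not counted for this. Without array 1, 10 of the 32 fell, against 10.66% of all genes. Without array 3, 6 of the 32 fell, against 9.36% of all genes. In each fit alone, loess called 15 of the 32 lower and 3 higher, against 23.5% lower and 23.9% higher among all genes. After surface removal limma called 16 lower and 1 higher, against 15.5% and 14.8%. Since no array had the dyes swapped, dye bias of single probes and a true difference cannot be told apart.

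**Figure D1:**
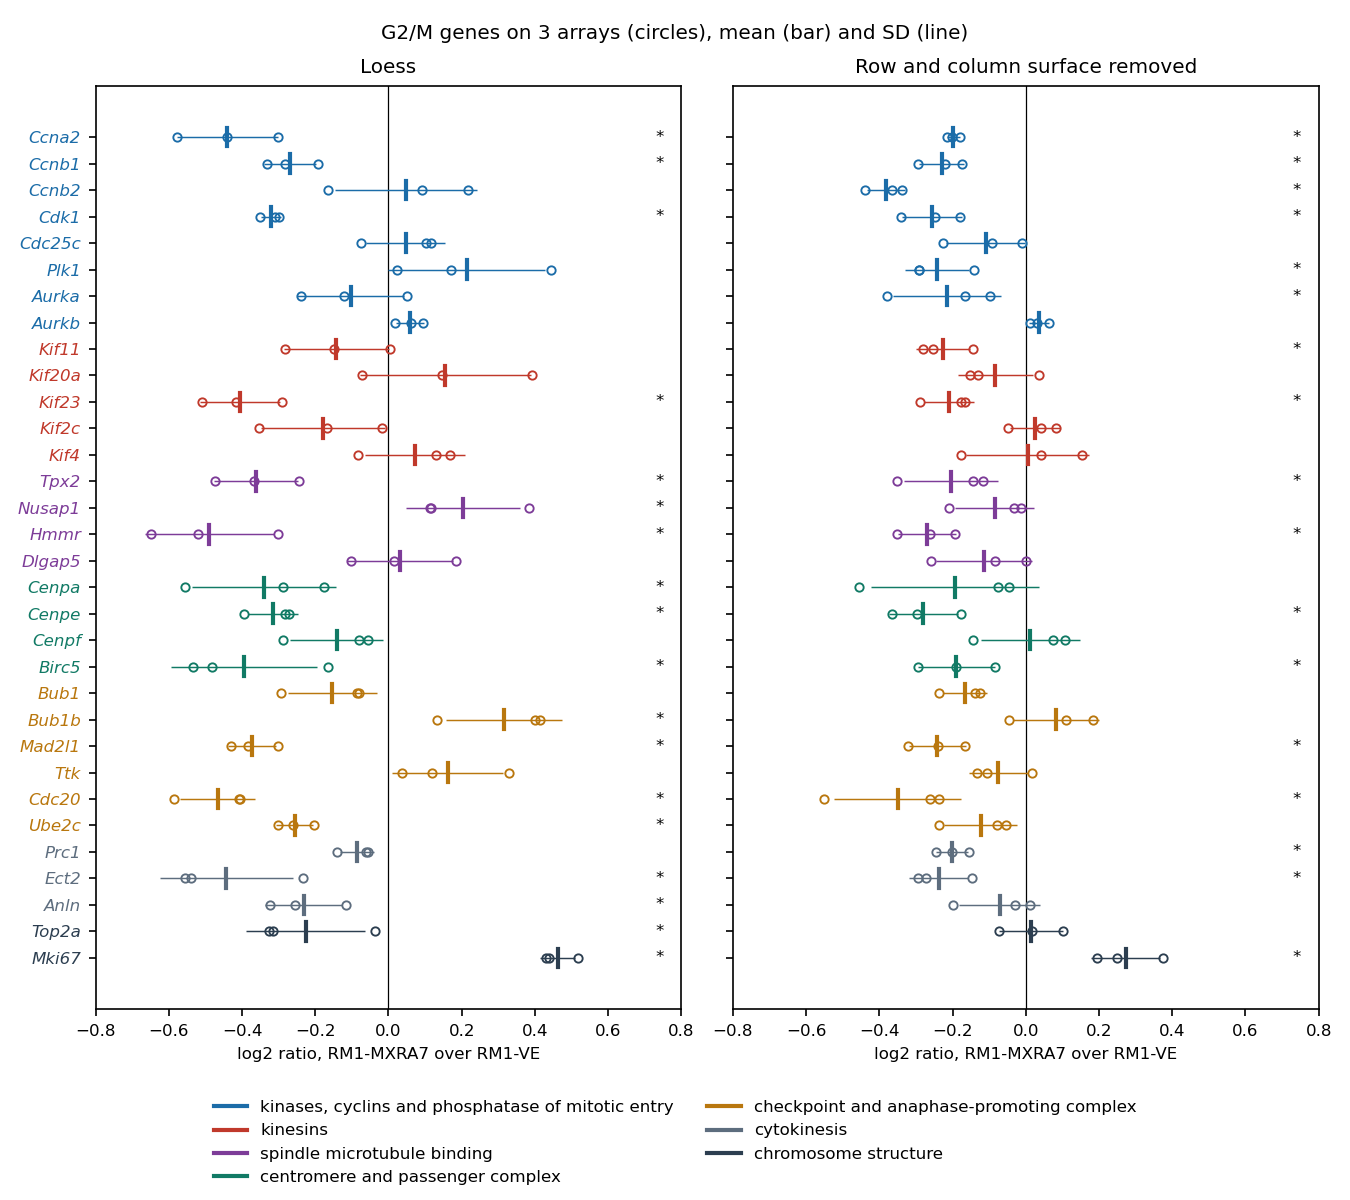
Log2 ratio of RM1-MXRA7 over RM1-VE (x axis) for the 32 G2/M genes (rows, coloured by machine), in loess values (left) and with the row and column surface removed (right). Circles are the 3 arrays, bars the mean, lines the SD, and an asterisk marks a limma adjusted p below 0.05. On the right 25 of the 32 means lie left of 0, where 8239 of all 16758 genes do. Mki67 lies to the right of 0 in both panels.

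Both sets of values are given because ratios followed the position of a spot. The probe of Bub1, the gene of a checkpoint kinase at kinetochores, was spotted 10 times on each array. Its loess log2 ratio on array 1 was 0.26 at row 22, the spot nearest the top, and -0.38 at row 501, the spot nearest the bottom. On array 2 these spots gave 0.29 and -0.42, and on array 3 they gave 0.034 and -0.59. One and the same probe was thus above 0 at the top of every array and below 0 at the bottom. The SD over its spots was 0.32, 0.33 and 0.30 on arrays 1, 2 and 3 in the loess values, and 0.097, 0.088 and 0.050 with the surface removed. On array 1 the spot at row 344 was flagged as an outlier and left out of this SD. Some slope remained, since on array 1 the top and bottom spots then gave 0.0039 and -0.21. Over 251 probes spotted 10 times the median SD was 0.19 to 0.23 in the loess values, 0.055 to 0.063 with the surface removed and 0.055 to 0.064 in Agilent's processed signals. Of the variance in log2 ratio, 34.5%, 33.7% and 25.5% on arrays 1, 2 and 3 went with the fitted surface. That fit also holds probe intensity and its products with position, so these shares are not for position alone.

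**Figure D2:**
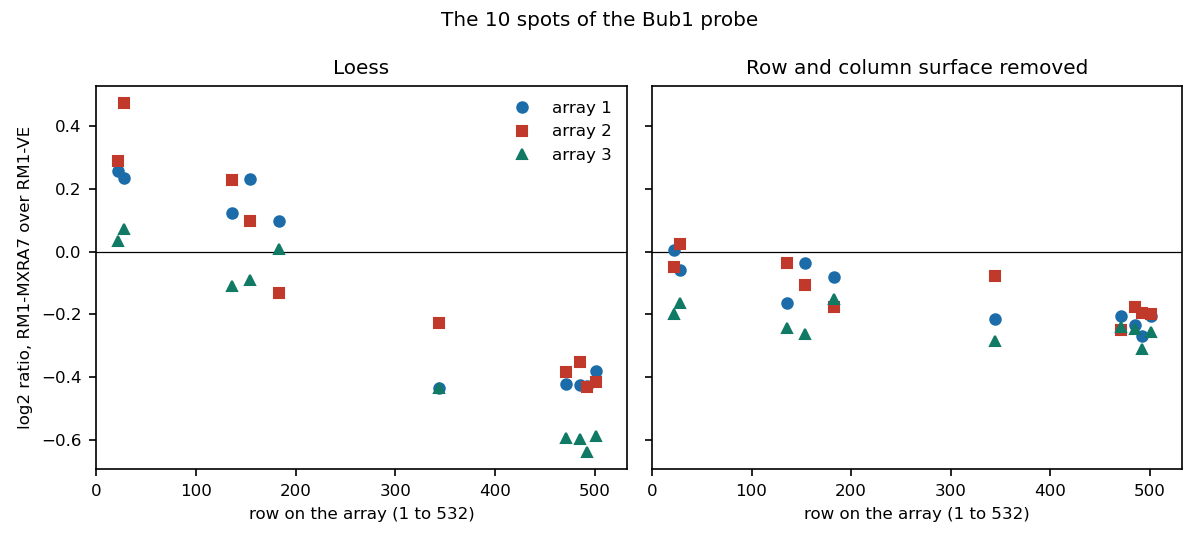
Log2 ratio of each of the 10 Bub1 spots (y axis) against its row on the array (x axis), with 1 symbol per array. The ratios fall with the row in the loess values (left), and with the surface removed (right) they lie between -0.31 and 0.025.

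The same trend ran through the G2/M genes. Among the 31 with 1 spot per array, the mean loess ratio and the row had a Spearman rho of -0.82, and the rho was -0.066 with the surface removed, over genes that share 3 arrays. The 8 genes in rows 1 to 178 had a median loess ratio of 0.16, where all 5497 genes there had a median of 0.23. The 10 in rows 356 to 532 had a median of -0.38, against -0.18 for all genes there. In rows 1 to 178, 0 of the 8 fell in both fits, though their median with the surface removed was -0.097. The part that row plays in which genes were called was not tested.

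**Figure D3:**
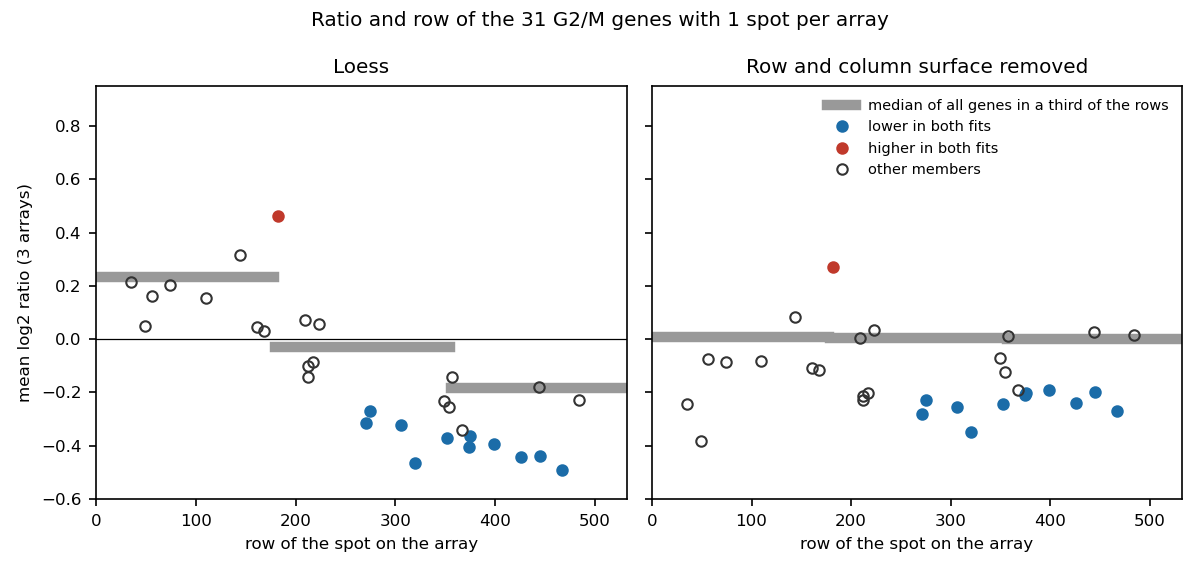
Mean log2 ratio of 3 arrays (y axis) against the row of the spot (x axis) for 31 G2/M genes, in loess values (left) and with the surface removed (right). Filled blue circles fell in both fits, the filled red circle is Mki67, and grey bars are the medians of all genes in each of 3 bands of rows, which step down on the left (0.23, -0.03 and -0.18) and not on the right.

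Sequence around the transcript start shows motifs that many of these genes hold. Genes of late cell cycle expression often carry the cell cycle genes homology region (CHR), whose core reads TTTGAA or TTCGAA, bound by the MuvB core of the DREAM and MYB-MuvB complexes, downstream of CCAAT boxes bound by the NF-Y factor. RefSeq promoter windows (GRCm38.p6), running from 250 bases before the transcript start to 50 after it, were on hand for 26 of the 32 genes, in 28 windows. Searched on both strands, with overlaps allowed, 23 of the 28 windows (82.1%) held TTTGAA or TTCGAA, against 19.2% of all 32851 windows. CCAAT stood in 82.1% of the members' windows, against 37.4% of all. Both were present in 75.0%, against 7.52%. In some genes, Hmmr and Kif23 among them, the CHR core lies only at or after the start. Of the 9 genes with windows among the 11 that fell, 5 held a CHR core and 7 held CCAAT, and of the other 17 genes 16 and 14 did. The stretches below cover the 150 bases before the start for 3 genes that fell, for the 1 that rose and for Prc1, lower only with the surface removed, in lower case with CHR cores and CCAAT boxes of either strand in capitals.
Cdc20 (chr4:118437344-118437493, minus strand): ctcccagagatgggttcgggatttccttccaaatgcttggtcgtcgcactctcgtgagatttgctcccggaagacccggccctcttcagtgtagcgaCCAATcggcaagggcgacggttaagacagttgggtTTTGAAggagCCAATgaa
Cdk1 (chr10:69352913-69353062, minus strand): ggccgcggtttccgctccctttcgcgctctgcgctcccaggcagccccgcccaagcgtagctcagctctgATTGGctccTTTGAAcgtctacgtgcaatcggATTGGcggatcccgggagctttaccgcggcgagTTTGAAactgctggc
Ccnb1 (chr13:100786487-100786636, minus strand): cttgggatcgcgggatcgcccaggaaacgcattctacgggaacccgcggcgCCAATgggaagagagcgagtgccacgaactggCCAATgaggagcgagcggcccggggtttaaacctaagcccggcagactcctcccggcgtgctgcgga
Mki67 (chr7:135716380-135716529, minus strand): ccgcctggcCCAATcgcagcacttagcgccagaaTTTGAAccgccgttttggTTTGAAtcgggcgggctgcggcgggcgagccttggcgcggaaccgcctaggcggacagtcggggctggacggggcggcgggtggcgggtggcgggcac
Prc1 (chr7:80294326-80294475, plus strand): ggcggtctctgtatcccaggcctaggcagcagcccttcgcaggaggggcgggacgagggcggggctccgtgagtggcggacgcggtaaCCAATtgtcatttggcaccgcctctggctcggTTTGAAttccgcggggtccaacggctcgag
In Cdc20, Cdk1 and Prc1 a CHR core lies within 30 bases of the start, behind a CCAAT box. Mki67, which rose, has CHR cores that begin 116 and 98 bases before the start. Ccnb1, which fell, has CCAAT boxes that begin 99 and 67 bases before the start and neither form of the CHR core in these letters.

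Among the 8 genes of kinases, cyclins and the phosphatase of mitotic entry, 3 fell and 0 rose. Ccna2, the cyclin A2 gene, had log2 ratios of -0.44, -0.30 and -0.58 on arrays 1, 2 and 3. Its normalized log2 intensity was 13.36, 13.35 and 13.29 in RM1-MXRA7, against 13.80, 13.66 and 13.87 in RM1-VE. The lines did not overlap, but these intensities, like those of the genes below, keep the trend over the array surface. Ccna2 lies at row 445, in the band of rows where all genes had a median loess ratio of -0.18. How many of all genes did not overlap was not counted. It fell by 0.44 ± 0.14 (SD, n = 3; limma adjusted p = 0.000418), and by 0.20 ± 0.02 with the surface removed (limma adjusted p = 0.0263). Its probe lies on chromosome 3, 36463978 to 36464037 (mm9, as in the array files). Cdk1, the gene of the kinase that cyclins A and B activate, had ratios of -0.35, -0.31 and -0.30, the narrowest spread of all 32 genes. It averaged -0.32 ± 0.03 and -0.26 ± 0.08 with the surface removed (SD, n = 3; limma adjusted p = 0.00272 and 0.0134). Its 2 dimmer probes lay at -0.23 and -0.21 in the loess values and at -0.19 and -0.061 with the surface removed, where limma did not call them (adjusted p = 0.0584 and 0.421 over all probes). The fall of Cdk1 in both fits thus rests on 1 of its 3 probes.

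Ccnb1, the cyclin B1 gene, was read by 3 probes. The brightest, at base 2228 of its transcript, had ratios of -0.33, -0.28 and -0.19, with a mean of -0.27 ± 0.07 and of -0.23 ± 0.06 with the surface removed (limma adjusted p = 0.00913 and 0.0179). The dimmer probes are shown because they were lower still once the surface was removed.
Ccnb1 probe at base 532 (mm9 chr13:101553449-101553508): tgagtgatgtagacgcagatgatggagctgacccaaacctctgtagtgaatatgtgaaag
Ccnb1 probe at base 846 (mm9 chr13:101551224-101551283): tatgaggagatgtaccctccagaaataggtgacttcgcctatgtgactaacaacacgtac
Each of these 60 bases has 1 reading frame without a stop codon. The first had ratios of -0.41, -0.40 and -0.62 with the surface removed (mean -0.48 ± 0.13, SD, n = 3) and passed in both fits over all probes. The second had -0.31, -0.13 and -0.56 (mean -0.33 ± 0.21) and passed only with the surface removed.

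The other 5 genes of this group were called in at most 1 of the fits. Ccnb2, the second B-type cyclin gene, lies at row 49 and had loess ratios of 0.09, 0.22 and -0.16, around 0. After surface removal they were -0.37, -0.34 and -0.44, the lowest mean of the 32 genes, at -0.38 ± 0.05 (SD, n = 3; limma adjusted p = 0.00186). Plk1, the Polo-like kinase gene at row 35, had a loess mean of 0.21 ± 0.21 and a mean of -0.24 ± 0.09 with the surface removed (limma adjusted p = 0.0527 and 0.0173). Its direction therefore differs between the sets of values. Aurka, whose kinase matures centrosomes, had a mean of -0.10 ± 0.15 and of -0.21 ± 0.15 with the surface removed (limma adjusted p = 0.307 and 0.0449). Cdc25c, the phosphatase gene, was negative on all 3 arrays with the surface removed, with a mean of -0.11 (95% interval -0.25 to 0.03). Aurkb, the kinase gene of the chromosomal passenger complex, had a dim probe and a mean of 0.04 (95% interval -0.09 to 0.16).

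Of the 5 kinesin genes, 1 fell. Kif23, whose motor bundles microtubules of the central spindle, had ratios of -0.42, -0.29 and -0.51, with intensities of 11.63, 11.82 and 11.83 in RM1-MXRA7, against 12.05, 12.11 and 12.34 in RM1-VE. Its mean was -0.41 ± 0.11 and -0.21 ± 0.07 with the surface removed (SD, n = 3; limma adjusted p = 0.000665 and 0.0263). Kif11, the motor that separates spindle poles, was called with the surface removed only, at -0.25, -0.28 and -0.14 on the 3 arrays (limma adjusted p = 0.0205). Kif20a, Kif2c and Kif4 passed in neither fit. Their means after surface removal were -0.083, 0.025 and 0.0055, and their 95% intervals ran from -0.22 at the lowest bound of Kif20a to 0.17 at the highest of Kif4. The second probe of Kif2c, a microtubule depolymerase gene, lay at 0.32 in the loess values and at 0.097 with the surface removed.

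Of the 4 genes of spindle microtubule binding, 2 fell. Hmmr, a spindle and hyaluronan-binding protein gene, had ratios of -0.52, -0.30 and -0.65, the lowest loess mean of the 32 genes. Its intensities were 12.57, 12.90 and 12.87 in RM1-MXRA7, against 13.09, 13.20 and 13.52 in RM1-VE. They did not overlap, with the surface trend left in and the probe at row 467. The mean was -0.49 ± 0.18 and -0.27 ± 0.08 with the surface removed (SD, n = 3; limma adjusted p = 0.00024 and 0.0107). Tpx2, which activates Aurora A on the spindle, had ratios of -0.37, -0.25 and -0.47, and a mean of -0.20 ± 0.13 with the surface removed (limma adjusted p = 0.0458). Its dimmer probe lay at -0.24 in the loess values and at -0.19 with the surface removed, and was called in the loess values only. Nusap1, a microtubule-binding gene at row 74, was called higher in the loess values only, at 0.20, and had a mean of -0.085 with the surface removed. Dlgap5, which stabilizes kinetochore fibres, had a mean of 0.03 and of -0.11 with the surface removed and passed in neither fit.

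Of the 4 centromere and passenger genes, 2 fell. Cenpe, the gene of a kinetochore motor that aligns chromosomes, had ratios of -0.39, -0.28 and -0.27, and of -0.36, -0.18 and -0.30 with the surface removed. It changed least between the sets of values among the 11 that fell, with means of -0.32 ± 0.07 and -0.28 ± 0.09 (SD, n = 3; limma adjusted p = 0.00328 and 0.0103). Birc5, the survivin gene, had ratios of -0.48, -0.17 and -0.53 on its brightest probe, with a mean of -0.19 ± 0.11 with the surface removed (limma adjusted p = 0.0481). Its 2 dimmer probes lay the other way in the loess values, at 0.24 and 0.20, and limma called the first higher (adjusted p = 0.0338 over all probes). They lay at -0.059 and -0.069 with the surface removed, where limma called neither (adjusted p = 0.573 and 0.474). The fall of Birc5 in both fits thus rests on 1 of its 3 probes. Cenpa, the centromeric histone H3 gene, had ratios of -0.29, -0.18 and -0.56, lowest on array 3. After surface removal they were -0.08, -0.04 and -0.46, and limma did not call it (adjusted p = 0.118). Cenpf had a dim probe and a mean of 0.012 with the surface removed.

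Of the 6 genes of the checkpoint and the anaphase-promoting complex, 2 fell. Cdc20, the activator that the checkpoint holds back, had ratios of -0.41, -0.41 and -0.58. Its intensities were 14.97, 15.30 and 15.04 in RM1-MXRA7, against 15.38, 15.71 and 15.63 in RM1-VE. The mean was -0.47 ± 0.10 and -0.35 ± 0.17 with the surface removed (SD, n = 3; limma adjusted p = 0.000207 and 0.00908), which makes it 1.38-fold and 1.27-fold lower. After surface removal array 3 was the lowest, at -0.55, against -0.24 and -0.26 on the others. Its probe lies on chromosome 4, 118105534 to 118105593 (mm9).

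Mad2l1, the gene of the checkpoint protein that binds Cdc20, had ratios of -0.43, -0.30 and -0.38 on its brightest probe, with means of -0.37 ± 0.07 and -0.24 ± 0.08 with the surface removed (SD, n = 3; limma adjusted p = 0.00103 and 0.0164). Its 2 dimmer probes went another way. After surface removal the probe at base 1094 of the transcript gave -0.17, 0.06 and 0.27, and the probe at base 806 gave -0.13, 0.03 and 0.19. Both straddle 0, so the fall of Mad2l1 rests on 1 of its 3 probes.

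Ube2c, the ubiquitin-conjugating enzyme gene of the same complex, showed the reverse. Its brightest probe was called lower in the loess values only, with a mean of -0.26, and had a mean of -0.12 with the surface removed. Its other probe, at row 47, had ratios of -0.18, -0.27 and -0.24 with the surface removed (mean -0.23 ± 0.05, SD, n = 3; limma adjusted p = 0.0156 over all probes), after a loess mean of 0.15. The checkpoint kinase genes passed in no case in both fits. Bub1 had a mean of -0.15 and of -0.17 with the surface removed (limma adjusted p = 0.0559). Bub1b, the BubR1 gene, lay at 0.32 in the loess values and at 0.082 with the surface removed, and Ttk, the Mps1 kinase gene, at 0.16 and -0.075.

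Of the 3 cytokinesis genes, 1 fell. Ect2, which activates RhoA at the cleavage furrow, had ratios of -0.56, -0.23 and -0.54. Its intensities were 12.28, 12.58 and 12.43 in RM1-MXRA7, against 12.84, 12.81 and 12.97 in RM1-VE. The mean was -0.44 ± 0.18 and -0.24 ± 0.08 with the surface removed (SD, n = 3; limma adjusted p = 0.000566 and 0.0175). Its dimmer probe, at -0.15 and at -0.16 with the surface removed, was called in neither fit. Prc1, which crosslinks microtubules of the midzone, was called with the surface removed only, with ratios of -0.20, -0.16 and -0.25. Anln, the anillin gene, was called in the loess values only, with means of -0.23 and of -0.071 with the surface removed.

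Of the 2 genes of chromosome structure 1 rose and 0 fell in both fits. Mki67, the gene of the Ki-67 protein that coats mitotic chromosomes, had ratios of 0.44, 0.52 and 0.43. Its intensities were 14.78, 14.96 and 15.02 in RM1-MXRA7, against 14.35, 14.45 and 14.58 in RM1-VE. They did not overlap, with the surface trend left in. It rose by 0.46 ± 0.05, and by 0.27 ± 0.09 with the surface removed (SD, n = 3; limma adjusted p = 0.000174 and 0.0114). With median centring in place of loess, which put the median of all genes at -0.29, it lay at -0.14. Its second probe, nearly as bright, gave -0.02, 0.21 and 0.33, and -0.07, 0.27 and 0.16 with the surface removed, and was not called in either fit. Top2a, the topoisomerase II alpha gene, had ratios of -0.32, -0.04 and -0.32. It was called lower in the loess values only, at -0.23 (limma adjusted p = 0.0323), and with the surface removed lay at 0.015 (95% interval -0.12 to 0.15).

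Grouped by the phase in which they act, 3 of 9 entry genes fell and 1 rose. Falls numbered 3 of 9 among genes of spindle assembly and alignment, 3 of 8 among those of the checkpoint and anaphase onset, and 2 of 6 among those of anaphase and cytokinesis. The medians with the surface removed were -0.21, -0.19, -0.14 and -0.14 in that order. Differences between the phases were not tested. All 12 genes that were called in both fits lay among the 5586 genes with the brightest probes (mean log2 intensity of at least 11.8), where 24 of the 32 genes lie. Among those 5586, 9.27% of all genes fell and 8.04% rose. The part of probe brightness in the calls was not tested further.

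Over all their probes, 10 of the 32 genes had more than 1 probe with signal. Of the 14 probes other than the brightest, 10 were below 0 with the surface removed, and the share of all such probes on the array was not counted. Of the 46 probes, 12 fell and 1 rose in both fits over all 21805 probes, where 10.2% fell and 9.51% rose. Those 12 are the probes that stood for the 11 genes that fell, plus the Ccnb1 probe at base 532. The probe count thus largely repeats the count of genes, and among the dimmer probes only that of Ccnb1 fell in both fits.

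**Figure D4:**
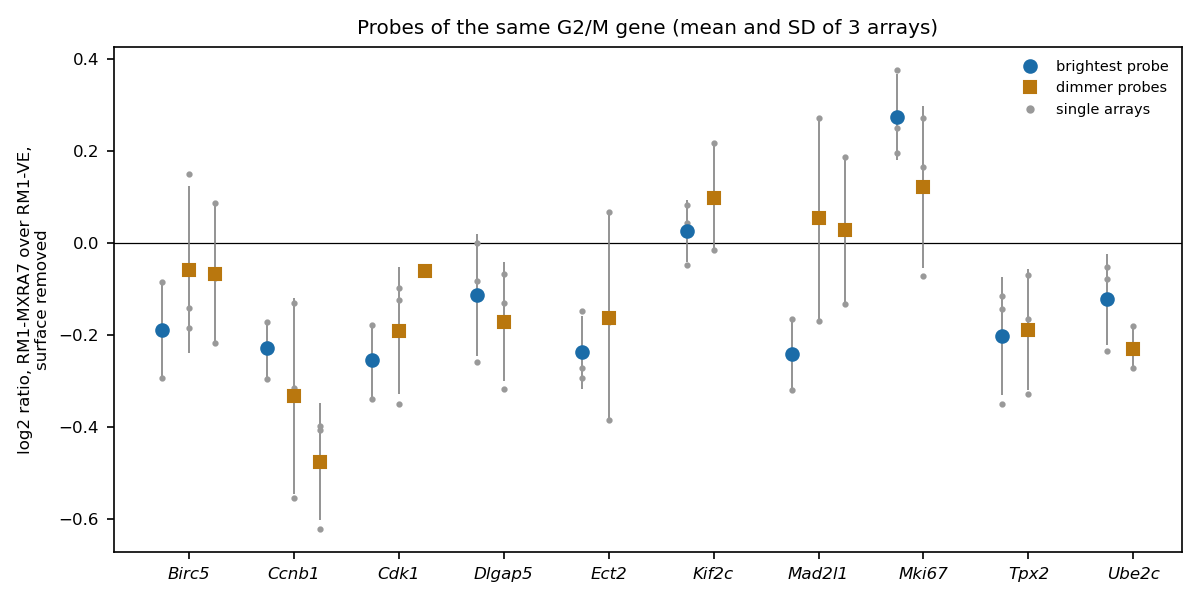
Log2 ratio of RM1-MXRA7 over RM1-VE with the surface removed (y axis) for each probe of the 10 G2/M genes with several probes (x axis), as mean and SD of 3 arrays, with single arrays as dots. The 3 Ccnb1 probes all lie below 0, while the dimmer probes of Mad2l1 lie at 0.053 and 0.027, apart from the brightest at -0.24.

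Other mitotic genes, taken from 8 further lists with 177 genes tested, were called about as often as all genes when pooled. Of these 177, 22 fell and 13 rose (12.4% and 7.34%), against 10.8% and 9.52% of all genes. Their median was -0.015 with the surface removed. The lists differed, and the share that fell ran from 4.76% among condensin and cohesin genes to 30.8% among other passenger and cytokinesis genes. Differences between the lists were not tested. Among 30 other kinetochore and centromere genes 3 fell and 0 rose (10% and 0%). Cenpm, a gene of the constitutive centromere network, lay at -0.45 ± 0.11 (SD, n = 3; limma adjusted p = 0.000303). After surface removal it lay at -0.25. Cenpn and Mis12, at -0.35 and -0.29, were not called with the surface removed. Among 22 other kinesin and spindle genes 3 fell and 2 rose (13.6% and 9.09%). The kinesin gene Kif22 lay at -0.51, the spindle pole gene Aspm at -0.43 and Numa1, which tethers spindle poles, at 0.74. Surface removal left these at -0.26, -0.24 and 0.37, and Haus4, at -0.51 in the loess values, was not called.

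Of 22 other entry regulators 3 fell and 2 rose (13.6% and 9.09%), near the 10.8% and 9.52% of all genes, with Ensa at 0.52, the Haspin kinase gene at -0.51 and the phosphatase gene Cdc25b at -0.38. Surface removal left them at 0.18, -0.31 and -0.19. The fourth, Nek6, at 0.49, was not called with the surface removed. Among 20 other genes of the checkpoint and the anaphase-promoting complex 1 fell and 1 rose (5% each). Fzr1, the Cdh1 activator gene of the complex, had a mean of -0.53 ± 0.12 and of -0.27 ± 0.22 with the surface removed. Anapc13, Bub3 and Cdc23, at 0.37, 0.31 and 0.26, were not called with the surface removed.

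Of 13 other passenger and cytokinesis genes 4 fell and 2 rose (30.8% and 15.4%), against 10.8% and 9.52% of all genes. The citron kinase gene Cit lay at -0.41, Rhoa at -0.40 and Vps4a, of the abscission machinery, at 0.54. Surface removal left these at -0.25, -0.24 and 0.29, and Shcbp1, at -0.38, was not called. Of 21 condensin and cohesin genes 1 fell and 1 rose (4.76% each). The cohesin acetyltransferase gene Esco2 lay at 0.51, and at 0.28 with the surface removed. Smc3, Wapl and Ncaph2, at 0.49, 0.44 and 0.43, were not called with the surface removed.

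Among 21 transcription factor genes of the late cell cycle programme, 1 fell and 3 rose (4.76% and 14.3%), against 10.8% and 9.52% of all genes. The other 17 were not called in both fits, and the remaining MuvB and NF-Y subunit genes of the list are among them. A shift of either complex as a whole was not tested. Mybl2, the gene of B-Myb, which activates G2/M genes with MuvB, had ratios of -0.40, -0.54 and -0.92. Its mean was -0.62 ± 0.27 and -0.45 ± 0.31 with the surface removed (SD, n = 3; limma adjusted p = 7.74e-05 and 0.0128), lower than that of any of the 32 genes. Rbl2, the gene of p130, the pocket protein of the repressive DREAM complex, had ratios of 0.87, 0.38 and 0.66, with a mean of 0.64 ± 0.24 and of 0.52 ± 0.20 with the surface removed (limma adjusted p = 4.74e-05 and 0.00222). Lin54, the MuvB subunit that contacts the CHR, rose by 0.53, and by 0.30 with the surface removed. Nfyc, an NF-Y subunit gene, rose by 0.63, and by 0.23 with the surface removed. Foxm1, the forkhead factor gene of the same programme, named here beyond the rule, had a mean of -0.16 and of 0.0084 with the surface removed and passed in neither fit.

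Of 28 other genes of the G2/M expression programme 6 fell and 2 rose (21.4% and 7.14%), with a median of -0.14 with the surface removed. The histone variant genes H2afx and H2afv rose by 0.66 and 0.53, and by 0.60 and 0.19 with the surface removed, while G2e3 lay at -0.52 and at -0.33. Pimreg, at 0.48, was not called with the surface removed. Kpna2, an importin gene of that list, and Cks2, a small subunit of the cyclin-dependent kinase among the entry regulators, were named after their values were seen. They had means of -0.27 and -0.28, and of -0.60 and -0.46 with the surface removed, and fell in both fits. Of 31 S phase genes tested, 1 fell and 2 rose (3.23% and 6.45%), and their median was 0.098 and 0.072 with the surface removed. The replication licensing gene Cdc6 rose by 0.55, and by 0.23 with the surface removed, while Mcm7, Lig1 and Pole, at 0.58, 0.52 and 0.48, were not called with the surface removed. The difference between the G2/M and S phase genes was not tested.

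**Figure D5:**
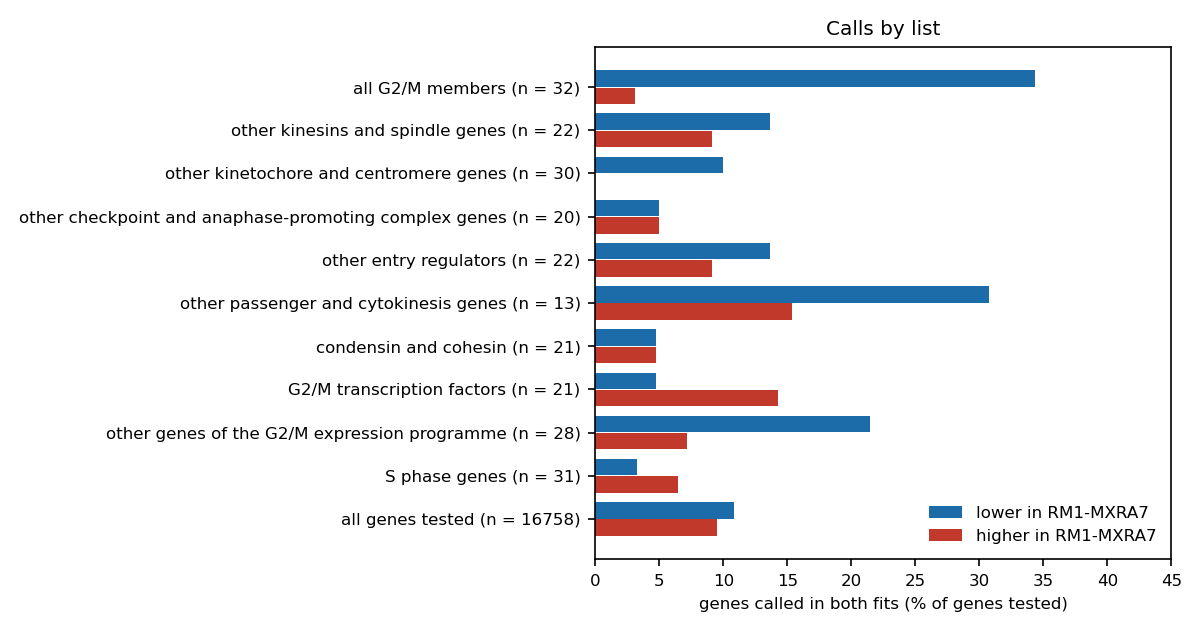
Share of the genes tested that limma called in both fits (x axis, %) in RM1-MXRA7 against RM1-VE, for the 32 G2/M genes, the other lists and all genes (rows, with the number tested). The G2/M genes have 34.4% lower and 3.13% higher, against 10.8% and 9.52% for all genes.

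For the arrays as a whole, 21995 to 23176 probes were well above background in RM1-MXRA7 and 21787 to 24185 in RM1-VE, and the number of arrays limits the precision. Mxra7 itself lay at 0.39, 0.39 and 0.15 in the loess values and at -0.019 ± 0.04 (SD, n = 3) with the surface removed, so the transfected gene did not check the direction, which rests on the dyes in the labels. Of 12 prostate epithelium markers 4 were above background (Krt8, Krt18, Krt14 and Foxa1), while those not above it included Epcam, Cdh1, Pbsn, Hoxb13, Krt5 and Tmprss2. Of 7 leukocyte markers 5 were above background, and Ptprc was not. Above background were also 3 of 4 endothelial markers, without Tek, and 5 of 6 of fibroblasts and mesenchyme, without Fap. Of these markers Cdh5 and Col1a1 fell, at -0.87 and -1.82, and Foxa1, Col1a2 and Col3a1 rose, at 0.58, 0.40 and 1.83. Their part in the G2/M ratios was not tested.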

How the data were processed

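Total RNA of RM1-MXRA7 (Cy3) and RM1-VE (Cy5) was measured on 3 Agilent 2-colour arrays, on 1 slide with 1 scan time. Per the file headers, the deposited scanner files hold mean and background intensity per spot, processed intensity detrended and dye-normalized by Agilent Feature Extraction (10.7.1.1 per the submitters' processing notes), and mm9 positions. The deposited log10 ratio was not used. Values in the deposited series matrix are a linear ratio, which matched the Cy3 over Cy5 quotient of processed signals within 1% in all values read (100%). Its direction is therefore known, and its column medians were 1.02, 1.03 and 0.972.

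Here limma 3.58.1 (R 4.3.3) applied normexp background correction with an offset of 50, then loess per array, and Cy3 was placed over Cy5. Outlier-flagged and control spots were dropped and the spots of each probe averaged. Probes entered the tests where 1 channel or both stood well above background on every array. The brightest kept probe stood for its gene. Ratios were tested with lmFit and eBayes, with Benjamini-Hochberg adjustment over 16758 genes (14.0 prior and 2 residual degrees of freedom). For the second fit a surface of degree 4 over row and column, with intensity and its products with the surface terms, was removed from each array. Intensities per line are after loess and Aquantile, without removal of the surface. The limma fit and the surface removal were tested on simulated data, with a smooth trend along rows that was the same on every array. The other steps were not simulated.

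The 32 genes, the other lists, the tests and the rule on both fits were chosen with earlier results of these data known. Every member is accounted for, and from each other list the genes named are up to 4 with the smallest adjusted p in the loess fit, apart from some genes that are not reported here. Repeat numbers pair the lines, since each array is a pair. Promoter sequences are from RefSeq (GRCm38.p6), without use of coordinates across builds. Alternatives covered background, normalization, surface, filter, probes, test, channels and arrays left out.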

Additional observations from a re-analysis of the deposited data

How the results depend on the processing

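With the surface removed 1 gene was higher, as in Agilent's processed signals and in the series matrix ratios, where 13 were lower. With median centring in place of loess 28 genes were lower and 0 higher, and the median was -0.68, while that of all genes was -0.29. Single channels gave 5 lower and 1 higher with no replicate block, and 15 lower and 3 higher with the array as a replicate block, so the pairing carries calls. Leaving out each array in turn gave 11 to 14 lower genes, 1 to 5 higher and medians from -0.22 to -0.14. With the surface removed it gave 2 to 16 lower (16, 2 and 9 without arrays 1, 2 and 3), 0 to 1 higher and medians from -0.20 to -0.13. In both fits together it gave 1 to 10 lower and 0 to 1 higher, the lowest without array 2, which leaves 2 arrays to estimate the spread. The causes of the other shifts were not tested. Of the 11 genes that fell, 10 were also called in Agilent's processed signals, with Birc5 as the exception (limma adjusted p = 0.169). The fits that leave out arrays after surface removal, or in both fits, and the count with Agilent's signals as a further fit were chosen after the data were seen. Over the 32 genes and all alternatives there were 608 values, of which 537 had the sign of the loess fit and 71, in 14 genes, the other sign. Of the 71, 43 were called in neither fit and 28 in one or both. By median centring those 28 included Ccnb2 (-0.52), Plk1 (-0.37), Kif20a (-0.36), Dlgap5 (-0.28), Kif4 (-0.25), Cdc25c (-0.23), Nusap1 (-0.21), Mki67 (-0.14) and Bub1b (-0.074). With the surface removed they were Ccnb2 (-0.38), Plk1 (-0.24), Nusap1 (-0.085) and Top2a (0.015). Leaving out arrays 1, 2 and 3 after that put Ccnb2 at -0.39, -0.40 and -0.35 and Nusap1 at -0.023, -0.11 and -0.12. Without arrays 1 and 3 Plk1 lay at -0.22 in both cases and Top2a at 0.059 and 0.014. In Agilent's signals, and likewise in the series matrix, Ccnb2 lay at -0.36 and Nusap1 at -0.10. Birc5 lay at 0.016 by the mean of its probes. With the sign kept, 69 values lost a call and 22 gained one. Calls over all genes moved by more than 1.5 times under median centring (9844 lower, 949 higher), surface removal (2600 and 2486), Agilent's signals (2233 and 1881), the series matrix (2221 and 1867), no replicate block (1104 and 1207), without array 2 (2549 and 2512), and with the surface removed without array 2 (921 and 722) or array 3 (2204 and 2054), against 3940 and 4005.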
